A study of Mus musculus with 12 samples.

Results

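Dennd2a, Myo7a and Gm10382 are the 3 genes with the smallest p-values among genes lower in lung lymphatic endothelial cells (LECs) after 8 weeks of cigarette smoke (CS). They are 3 of 21440 genes tested, out of 52636 identifiers in the count files. Since the acute comparison selected them, their acute values are given below as a description without a test, and the chronic comparison, whose difference between CS and RA the selection did not use, was tested. The p-values that ranked the genes came from a fit of all 12 libraries with 1 shared estimate of the spread. The spread among the 8 chronic libraries therefore entered the selection, and the SEs, intervals and p-values of the chronic comparison are not fully independent of it. Both comparisons were set against Prox1, the transcription factor gene of lymphatic identity, to show whether the 3 genes followed it.

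The cells were sorted as GFP-positive, CD31-positive, lineage-negative and EpCAM-negative from the lungs of Prox1-EGFP reporter mice, and every group carried this reporter. Acute CS (2 libraries) and acute room air (RA, 2 libraries) came from mice labelled 8wk, after 8 weeks of whole-body exposure, 5 days a week, begun at 6 weeks of age, or of room air alone. Chronic CS (5 libraries) and chronic RA (3 libraries) came from mice labelled Aged, after 24 weeks or more. Each acute library pooled cells of 2 to 5 mice and the chronic libraries were not pooled. Libraries are named by the sex and number of their labels (F, M, M1 to M4).

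Dennd2a encodes a DENN domain protein, which loads GTP onto the small GTPase Rab9 and so acts in transport from endosomes back to the Golgi apparatus. Myo7a encodes myosin VIIa, an unconventional myosin that walks on actin and is best known from the hair bundles of the inner ear and from the retinal pigment epithelium, where its loss causes Usher syndrome. Gm10382 is a predicted gene with no established function. Prox1 switches on and maintains the lymphatic programme of endothelial cells, and its regulatory sequence drives the GFP by which these cells were sorted.

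In GRCm38, Dennd2a (ENSMUSG00000038456) lies on the minus strand at chr6:39462378-39557867, with 20 exon blocks that add up to 7229 bases. Myo7a (ENSMUSG00000030761) lies on the minus strand at chr7:98051060-98119524, with 56 exon blocks of 8566 bases in all. Gm10382 (ENSMUSG00000072612) is a gene of 1 exon on the plus strand at chr5:125389322-125390554, 1233 bases long and annotated as protein coding. Of the bases of its exon, 506 (41.0%) are also annotated as exon of a gene on the opposite strand. The kit that made the libraries does not mark strand, so reads of the 2 genes cannot be told apart there, and every value of Gm10382 below carries this limit.

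Dennd2a and Myo7a were both lower after acute CS, so the bases before their starts are shown, from RefSeq promoter windows of GRCm38.p6. Windows were held for 2 of the 3 genes, Dennd2a and Myo7a. The stretches are chr6:39557868-39558084 for Dennd2a and chr7:98119525-98119743 for Myo7a, both read on the minus strand, 5′ to 3′, and both end at the base before the gene's annotated start. Capitals mark matches to the motifs TGTTTAC or GGGCGG on either strand.
Dennd2a: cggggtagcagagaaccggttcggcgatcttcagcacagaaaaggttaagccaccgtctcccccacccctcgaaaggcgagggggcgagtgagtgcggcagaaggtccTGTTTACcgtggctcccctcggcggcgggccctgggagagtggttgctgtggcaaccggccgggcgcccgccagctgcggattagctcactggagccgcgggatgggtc
Myo7a: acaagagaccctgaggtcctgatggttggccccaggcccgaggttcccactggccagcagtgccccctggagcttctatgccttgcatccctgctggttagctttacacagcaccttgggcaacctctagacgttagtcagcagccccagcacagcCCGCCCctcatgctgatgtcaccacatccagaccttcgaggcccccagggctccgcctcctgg
In these windows of 300 bases, 9 motifs were searched on both strands (TATAAA of the TATA box, GGGCGG of the GC box, AGGTCA of nuclear receptors, AGGAAG of ETS factors, TGTTTAC of forkhead factors, GCGTG of the aryl hydrocarbon receptor, TGACNNNGC of the antioxidant response, TGANTCA of AP-1 and CANNTG of the E-box). The Dennd2a window held TGTTTAC, found in 3.65% of 32851 windows of that length, and, past the printed stretch, AGGAAG, found in 35.4%. The Myo7a window held GGGCGG, found in 35.7% of windows, at 2 places, of which 1 lies in the printed stretch. Both windows held CANNTG, which is its own reverse complement and was found in 72.3% of windows. A second Myo7a window, at an inner start, held GCGTG (32.4% of windows) and CANNTG. The other motifs searched had no match in either first window. No motif other than CANNTG was shared by the Dennd2a window and the first Myo7a window.

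Total counts ranged from 18821438 to 56998590 per library. In chronic CS they were 18821438 to 22885446 for F, M1 and M2 and 45436986 to 47494020 for M3 and M4. A floor of 3 counts corresponded to 0.0507 to 0.158 CPM (each gene's counts scaled by library size and TMM factors), and the lowest member count was 441 reads, for Gm10382. These floors cover counting error only, whereas the intervals of log2 fold changes below come from edgeR's fit and carry the spread between libraries. The label of LECs was checked against 12 lymphatic markers, all of which were tested. Prox1 lay at 1041 to 2476 CPM and Flt4, the receptor of the lymphatic growth factor VEGF-C, at 1158 to 4512 CPM over all 12 libraries. Ccl21a was at or below 1.06 CPM throughout, and near-identical copies of it can take up its reads.

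The cell type lists moved in the acute comparison. In the counts that follow, a marker rose or fell if edgeR called it at an adjusted p under 0.05, as for 3.47% of all genes tested. Markers that were not called could also differ. Of the lymphatic markers, 10 of 12 had a negative log2 fold change, and of the epithelial markers 12 of 12 had a positive one. For the lymphatic list, 5 of 12 markers fell and 1 rose, and its summed level was 17230 to 19130 CPM in acute RA and 7734 to 11290 CPM in acute CS. For the leukocyte list, 8 of 8 markers rose, from a sum of 126.0 to 132.6 CPM to 1626 to 2274 CPM. Ptprc, the CD45 gene, went from 19.6 to 19.8 CPM in acute RA to 154.0 to 284.4 CPM in acute CS. For the blood endothelium list, 7 of 12 markers rose (2916 to 3792 CPM against 7429 to 8745 CPM). For mesenchyme, 6 of 11 rose (175.6 to 239.0 against 714.3 to 1081 CPM). For alveolar macrophages, 3 of 11 rose and 1 fell (813.6 to 904.7 against 2546 to 2796 CPM), and Chil3 was at 31.2 to 86.6 CPM in acute RA and 1313 to 1354 CPM in acute CS. For epithelium, 1 of 12 rose, with sums of 1086 to 1878 CPM and of 274.1 to 8861 CPM. None of the 5 erythroid markers tested passed edgeR or DESeq2 or had an unadjusted p under 0.05 in edgeR (37.7 to 69.9 against 10.7 to 697.5 CPM), and Slc4a1 was at 0 in both acute RA libraries. In the chronic comparison, none of the markers in these lists passed the adjusted limit of edgeR. At an unadjusted p under 0.05 in edgeR, which 10.9% of all genes had, 1 lymphatic marker was higher and 1 lower. At that limit, markers were higher for blood endothelium (5, with 1 lower), leukocytes (4), alveolar macrophages (4), epithelium (8), mesenchyme (8) and erythroid cells (0). DESeq2 called 0, 3, 1, 3, 3, 6 and 0 markers of these lists in that order, beside 2.93% of the genes to which it gave an adjusted p. There, the summed lymphatic list was at 22040 to 24670 CPM in RA and 16900 to 22990 CPM in CS, and Sftpc, an epithelial surfactant gene, was at 165.1 to 296.2 and 631.4 to 3014 CPM. What part these shifts have in the values of the 3 genes was not tested. In sorted bulk RNA, a smaller share of LECs and less of a transcript per LEC cannot be told apart.

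After acute CS, the 3 genes were at between 25.2% and 48.0% of their room air level, and Prox1 was at 48.9%. Across all genes, edgeR's quasi-likelihood test called 745 of 21440 (3.47%) at an adjusted p under 0.05, of which 155 (0.723% of those tested) were lower. That count was 79 without acute RA F, 3 without acute RA M and 175 without acute CS F. Every CS library lay below every RA library for 22.5% of genes. The members were picked from the top of the list of lower genes, so nothing is read from these shares.

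Dennd2a was at 100.8 CPM in acute RA F and 102.2 CPM in acute RA M, against 43.9 CPM in acute CS F and 53.6 CPM in acute CS M. The CS libraries lay below both RA libraries, and the 2 RA libraries were nearly equal. Its room air mean of 101.5 ± 0.977 CPM (SD, n = 2 libraries) compared with 48.7 ± 6.83 CPM (SD, n = 2) after smoke. The log2 fold change was -1.06 (SE 0.14).

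Myo7a was at 412.0 and 425.4 CPM in acute RA F and M, and at 167.5 and 205.7 CPM in acute CS F and M. As for Dennd2a, the female CS library was the lowest of the 4. The means were 418.7 ± 9.49 CPM (SD, n = 2) and 186.6 ± 27.0 CPM (SD, n = 2), and the log2 fold change was -1.17 (SE 0.15).

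Gm10382 was at 34.1 and 46.4 CPM in acute RA F and M, and at 10.7 and 9.56 CPM in acute CS F and M. Here the RA libraries differed more from each other than the CS libraries did. Its log2 fold change was -1.99 (SE 0.24), and the means were 40.25 ± 8.65 CPM (SD, n = 2) and 10.1 ± 0.812 CPM (SD, n = 2).

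The genes ranked next by p among those lower after acute CS, and so just outside the selection, were Egr1, an immediate early transcription factor gene, and Stab2, a scavenger receptor gene for hyaluronan. Their log2 fold changes were -1.40 (SE 0.19) and -1.44 (SE 0.20), both larger in size than those of Dennd2a and Myo7a. The order by p thus does not follow the order by size of change.

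**Figure D1:**
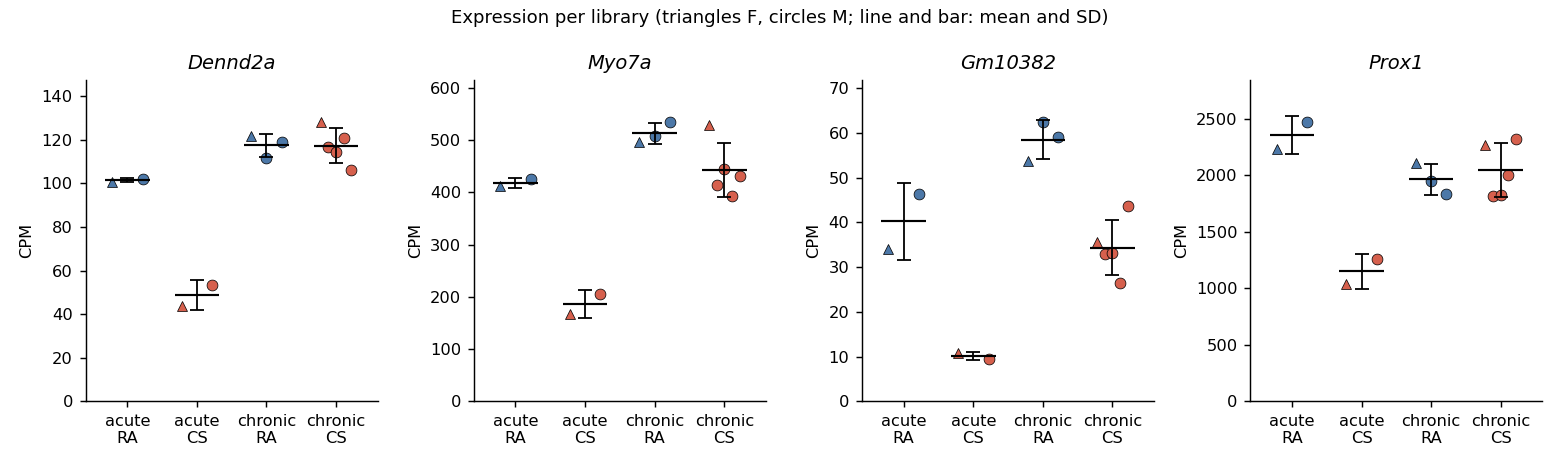
Expression of Dennd2a, Myo7a, Gm10382 and Prox1 in CPM on the y axis, 1 symbol per library (triangles F, circles M), in acute RA, acute CS, chronic RA and chronic CS, with the mean as a line and the SD as a bar. In acute CS all 4 genes lie below acute RA, and in chronic CS only Gm10382, at 26.4 to 43.6 CPM against 53.8 to 62.5 CPM in chronic RA, shows groups that do not overlap.

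Prox1 itself was at 2238 and 2476 CPM in acute RA F and M and at 1041 and 1262 CPM in acute CS F and M. Its log2 fold change was -1.03 (SE 0.16, adjusted p = 0.00797 from edgeR). When the members were counted per 1000 Prox1 reads, a ratio that does not depend on library scaling, Dennd2a was at 45.0 and 41.3 in acute RA F and M and at 42.2 and 42.5 in acute CS F and M. The CS libraries lay between the RA libraries, and the mean log2 ratio differed by -0.03. Myo7a was at 184.1 and 171.8 per 1000 Prox1 reads in acute RA and at 160.9 and 163.1 in acute CS, a difference of -0.13 on the log2 scale. The groups did not overlap, but the gap was narrow beside the fall in CPM. For how many of all genes the ratio to Prox1 separates the groups was not computed. Gm10382 was at 15.2 and 18.7 per 1000 Prox1 reads in acute RA and at 10.3 and 7.58 in acute CS, a log2 difference of -0.93.

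With Flt4 in place of Prox1 the acute log2 ratios differed by 0.05 for Dennd2a, -0.06 for Myo7a and -0.86 for Gm10382. Among the 12 lymphatic markers, acute log2 fold changes ranged from -1.44 to 1.29 with a median of -1.02. Of these markers, which include Prox1 and, as the lowest, Stab2, 5 had a more negative log2 fold change than Dennd2a, 2 than Myo7a and 0 than Gm10382. The acute comparison selected the members, so these ranks are a description and not a test. The median over all 21440 genes was 0.04.

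**Figure D2:**
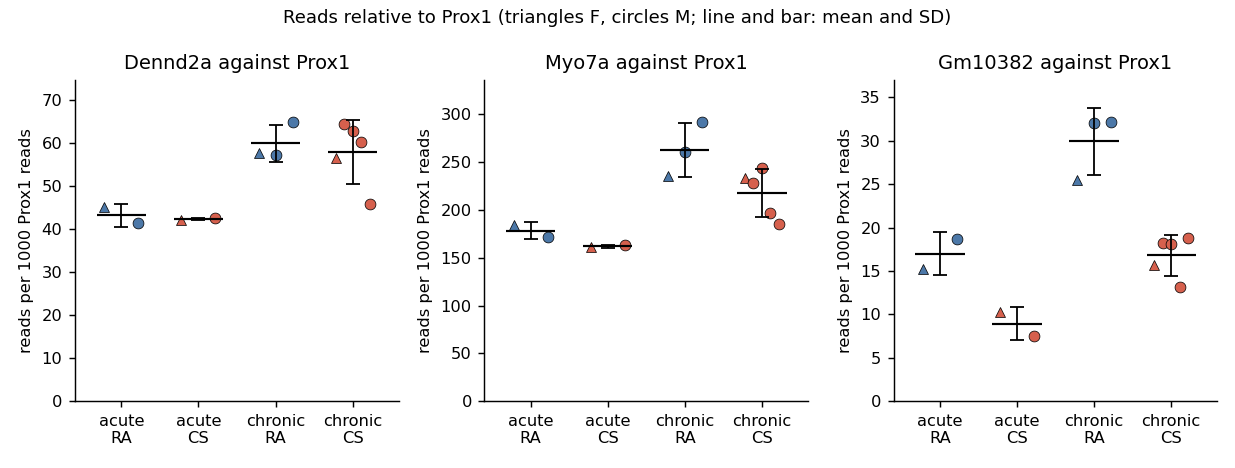
Reads of Dennd2a, Myo7a and Gm10382 per 1000 Prox1 reads on the y axis, 1 symbol per library (triangles F, circles M), with mean and SD for each group on the x axis. Dennd2a overlaps between CS and RA at both times, whereas Gm10382 in CS lies below RA at each time.

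After chronic CS, Gm10382 was the member with lower levels, Dennd2a was close to its room air level and Myo7a lay in between. None of the 3 passed the adjusted limit of edgeR, for which 0 of 21440 genes (0.0%) were called, against 2341 (10.9%) at an unadjusted p under 0.05, of which 1147 (5.35% of those tested) were lower. DESeq2 called 527 genes (2.93% of the 17979 to which it gave an adjusted p). The groups did not overlap, with every CS library below every RA library, for 5.49% of genes.

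Dennd2a was at 121.7, 111.5 and 119.1 CPM in chronic RA F, M1 and M2. In chronic CS it was at 128.3, 116.8, 114.6, 120.8 and 106.2 CPM in F, M1, M2, M3 and M4. The CS libraries spread to both sides of the RA libraries, with means of 117.4 ± 5.28 CPM (SD, n = 3) and 117.3 ± 8.12 CPM (SD, n = 5). The log2 fold change was -0.0016, with a 95% interval from -0.22 to 0.21 (edgeR's adjusted p = 0.9998).

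Myo7a was at 496.7, 508.1 and 535.4 CPM in chronic RA F, M1 and M2. In chronic CS it was at 528.4 CPM in F and at 413.9, 445.0, 394.0 and 430.6 CPM in M1 to M4. The CS F library lay within the RA range and the other 4 lay below it. The log2 fold change was -0.21, with a 95% interval from -0.46 to 0.03 (edgeR's adjusted p = 0.494), and the exact permutation test of log2 CPM gave p = 0.107, of a smallest possible 0.0357. The log2 fold change was -0.13 with the shallower CS libraries alone (F, M1 and M2) and -0.32 with the deeper ones alone (M3 and M4).

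Gm10382 was at 53.8, 62.5 and 59.1 CPM in chronic RA F, M1 and M2. In chronic CS it was at 35.6, 33.1, 33.1, 26.4 and 43.6 CPM in F, M1, M2, M3 and M4. Every CS library lay below every RA library, as for 5.49% of all genes. The means were 58.5 ± 4.38 CPM (SD, n = 3) and 34.35 ± 6.20 CPM (SD, n = 5), and the log2 fold change was -0.77 with a 95% interval from -1.13 to -0.40. Its adjusted p was 0.227 from edgeR and 0.00517 from DESeq2, so the call depended on the tool. The exact two-sided permutation test of log2 CPM gave p = 0.0357, the smallest that 5 libraries against 3 allow. The log2 fold change was -0.77 with chronic CS F, M1 and M2 alone and -0.74 with M3 and M4 alone.

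**Figure D3:**
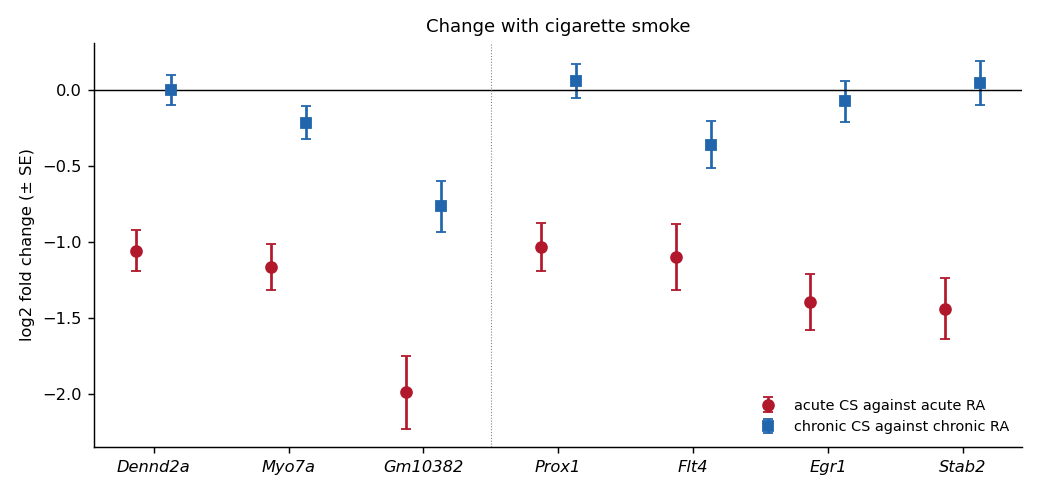
Log2 fold change of CS against RA on the y axis, with its SE as a bar, in the acute (circles) and chronic (squares) comparison, for the 3 members left of the dotted line and for Prox1, Flt4, Egr1 and Stab2. Gm10382 has the lowest value in both comparisons, -1.99 and -0.77, and Dennd2a and Prox1 lie near -1 in the acute and near 0 in the chronic comparison.

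After chronic CS, Prox1 did not pass the limit. It was at 2110, 1953 and 1836 CPM in chronic RA F, M1 and M2 and at 1814 to 2322 CPM, with a median of 2005 CPM, in the 5 chronic CS libraries. The log2 fold change was 0.06, with a 95% interval from -0.19 to 0.31 (edgeR's adjusted p = 0.883). Per 1000 Prox1 reads, Dennd2a was at 59.9 ± 4.33 (SD, n = 3) in chronic RA and 57.9 ± 7.44 (SD, n = 5) in chronic CS, a log2 difference of -0.06 (exact permutation p = 0.786). Myo7a was at 262.4 ± 28.2 and 217.3 ± 25.01 per 1000 Prox1 reads, a log2 difference of -0.27 (exact permutation p = 0.0714), and its groups overlapped.

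Gm10382 was at 25.5, 32.01 and 32.17 per 1000 Prox1 reads in chronic RA F, M1 and M2, and at 15.7, 18.2, 18.1, 13.2 and 18.8 in chronic CS F and M1 to M4. All 5 CS libraries lay below all 3 RA libraries, and the log2 difference was -0.83 (exact permutation p = 0.0357, the smallest possible). The share of all genes whose ratio to Prox1 separates in this way was not computed. These were 3 tests against Prox1, and their p-values are unadjusted.

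The choice of the reference gene mattered for Dennd2a and Myo7a in the chronic comparison. Flt4 was at 4198 to 4512 CPM in chronic RA and 2697 to 4189 CPM in chronic CS, a log2 fold change of -0.36 (SE 0.16, edgeR's adjusted p = 0.441). With Flt4 as the reference, Dennd2a was higher in chronic CS by 0.38 on the log2 scale (exact permutation p = 0.0357), Myo7a by 0.16 (exact permutation p = 0.393), and Gm10382 was lower by a difference of -0.40 (exact permutation p = 0.0357). With the summed lymphatic list as the reference, the differences were 0.22, -0.0024 and -0.56. Gm10382 was the member whose log2 ratio was negative with each of the references Prox1, Flt4 and the lymphatic list. In the chronic comparison the lymphatic markers had log2 fold changes from -0.36 to 0.53 with a median of -0.13, and 7 of the 12 were more negative than Dennd2a, 4 than Myo7a and 0 than Gm10382.

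Across the 8 chronic libraries, log2 CPM of the members were compared with those of Prox1 and of Flt4, as 6 relations. Dennd2a gave r = 0.030 (exact permutation p = 0.938) and rho = 0.167 (exact permutation p = 0.703). Myo7a gave r = 0.113 (exact permutation p = 0.781) and rho = 0.095 (exact permutation p = 0.840). Gm10382 gave r = 0.017 (exact permutation p = 0.971) and rho = 0.190 (exact permutation p = 0.665). Without chronic CS F and M4, the libraries farthest from the median of Prox1, r was 0.457, 0.083 and 0.182. For Dennd2a the value turned on single libraries, with r = 0.758 without chronic CS M4 (exact permutation p = 0.0512) and r = -0.435 without chronic CS F (exact permutation p = 0.365). With Flt4 the values were higher, at r = 0.257 (exact permutation p = 0.530) and rho = 0.286 (exact permutation p = 0.501) for Dennd2a. Myo7a gave r = 0.677 (exact permutation p = 0.0794) and rho = 0.714 (exact permutation p = 0.0576) with Flt4. Gm10382 gave r = 0.642 (exact permutation p = 0.0907) and rho = 0.762 (exact permutation p = 0.0368) with Flt4. Without chronic CS M1 and M2, the libraries farthest from the median of Flt4, r was 0.322, 0.859 and 0.676. Adjusted over the 6 relations by Benjamini-Hochberg, none passed, with exact permutation p-values of at least 0.272 for r and 0.173 for rho. All 5 CS libraries lay below all 3 RA libraries for both Flt4 and Gm10382, so their relation over the 8 libraries moves with the groups. The groups hold 5 and 3 libraries, and no relation within a group is given.

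Between the controls, Dennd2a was at 100.8 to 102.2 CPM in acute RA and 111.5 to 121.7 CPM in chronic RA, a log2 fold change of 0.21 (SE 0.12). Myo7a was at 412.0 to 425.4 and 496.7 to 535.4 CPM (0.29, SE 0.14), and Gm10382 at 34.1 to 46.4 and 53.8 to 62.5 CPM (0.54, SE 0.21). All 3 were higher in chronic RA, whereas Prox1 had a log2 fold change of -0.26 (SE 0.14) that did not pass (adjusted p = 0.739 from edgeR). The acute RA libraries had taken part in the selection, so the differences of the 3 members are a description. The age of the mice, pooling and total count differed together between these controls and cannot be told apart.

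Per length of the whole annotated exons, Myo7a had the highest level of the 3 genes in every library and Dennd2a the lowest. The length of Gm10382 includes the 506 bases shared with the gene on the opposite strand. Its FPKM and its place in these orders carry that limit, and the order over the unshared bases was not computed. In chronic RA, Myo7a was at 59.9 ± 2.32 FPKM, Gm10382 at 47.4 ± 3.55 FPKM and Dennd2a at 16.2 ± 0.730 FPKM (SD, n = 3). In acute RA the levels were 48.9 ± 1.11, 32.65 ± 7.02 and 14.0 ± 0.135 FPKM (SD, n = 2). In chronic CS they were 51.6 ± 6.04, 27.9 ± 5.03 and 16.2 ± 1.12 FPKM (SD, n = 5). In acute CS they were 21.8 ± 3.15, 8.22 ± 0.658 and 6.74 ± 0.945 FPKM (SD, n = 2), and there Gm10382 at 7.76 and 8.69 FPKM was close to Dennd2a at 7.41 and 6.07 FPKM. By their mean FPKM over the room air libraries, 4.40% of tested genes lay above Myo7a, 6.13% above Gm10382, 17.2% above Dennd2a and 0.569% above Prox1.

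The genes most like each member were ranked by Pearson's r of log2 CPM over the 12 libraries, among 12428 genes whose log2 CPM averaged 1 or more. These libraries include those that selected the members, and they share their scaling. The genes most like Dennd2a were Egr1 (r = 0.987), Ston2, an endocytic adaptor gene (r = 0.973), and Myo7a (r = 0.968). Those most like Myo7a were Stab1, a scavenger receptor gene of lymphatic and sinusoidal endothelium (r = 0.977), Dennd2a (r = 0.968) and Egr1 (r = 0.963). Those most like Gm10382 were Tspan18, a tetraspanin gene (r = 0.954), Stab1 (r = 0.947) and Myo7a (r = 0.938). Prox1 ranked 116 for Dennd2a, 131 for Myo7a and 176 for Gm10382.

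Over the 8 chronic libraries the genes most alike were others. They are the top of a ranking of 12428 genes over 8 libraries, so their r is high by selection. Whether it exceeds what unrelated genes would reach was not tested. Edil3, a secreted integrin ligand gene (r = 0.943), Zfp704 (r = 0.934) and Slc39a7, a zinc transporter gene (r = 0.916), were most like Dennd2a. Cnpy2 (r = 0.981), the mitochondrial ribosome gene Mrpl20 (r = 0.976) and Abtb1 (r = 0.959) were most like Myo7a. The class I histocompatibility gene H2-D1 (r = 0.977), Zbtb48 (r = 0.976) and Tmed2, a gene of vesicle traffic between endoplasmic reticulum and Golgi (r = 0.965), were most like Gm10382. In these 8 libraries Myo7a and Gm10382 had r = 0.738, Dennd2a and Myo7a 0.332 and Dennd2a and Gm10382 -0.245.

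In the families and pathways of Dennd2a and Myo7a, edgeR called 1 of 15 DENN domain genes, 0 of 9 genes around Rab9, 1 of 18 myosin genes and 2 of 8 Usher genes after acute CS, beside 3.47% of all genes tested. Of the 15 other DENN domain genes tested, 1 rose and 0 fell after acute CS, and their log2 fold changes had a median of -0.0098. The gene that rose was St5, a close relative of Dennd2a that averaged 22.2 ± 6.55 CPM in RA and 137.9 ± 88.2 CPM in CS (SD, n = 2), with a log2 fold change of 2.64 (SE 0.47, adjusted p = 0.0127 from edgeR). The highest of these genes by FPKM in room air did not pass, with acute log2 fold changes of 0.80 for Dennd3 (adjusted p = 0.225), -0.10 for Dennd5a (adjusted p = 0.883) and -0.0098 for Dennd6a (adjusted p = 0.994, edgeR). After chronic CS none of the 15 passed edgeR or DESeq2, 1 had an unadjusted p under 0.05 in edgeR (10.9% of all genes did), and the median was 0.03.

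Of 9 genes tested around Rab9 and transport from endosome to Golgi, none passed edgeR after acute CS. An unadjusted p under 0.05 in edgeR was found for 2, both higher, beside 3369 of all 21440 genes. DESeq2 called 1, beside 1928 of all genes. The median log2 fold change was 0.18. The mannose 6-phosphate receptor gene M6pr, which carries lysosomal enzymes, had an acute log2 fold change of 0.18 (SE 0.26). The retromer genes Vps26a and Vps35 had -0.06 (SE 0.27) and 0.05 (SE 0.25). After chronic CS none passed edgeR or DESeq2 and none had an unadjusted p under 0.05 in edgeR (10.9% of all genes did), with a median of -0.09. Rab9b was not tested.

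Of 18 other unconventional myosin genes tested, 1 rose after acute CS, and the log2 fold changes of the 18 had a median of 0.43. Myo1f, a myosin known from leukocytes, rose, with means of 8.44 ± 1.18 and 122.8 ± 69.8 CPM (SD, n = 2) and a log2 fold change of 3.86 (SE 0.84, adjusted p = 0.0290 from edgeR), beside the leukocyte markers given above. The most abundant of these by FPKM, Myo1c, Myo1e and Myo6, had acute log2 fold changes of -0.17 (SE 0.24), -0.31 (SE 0.26) and 0.03 (SE 0.21). After chronic CS none passed edgeR or DESeq2, and the median was 0.13. An unadjusted p under 0.05 in edgeR was found for 4 of the 18 (3 higher and 1 lower), beside 10.9% of all genes. Myo7b, the closest relative of Myo7a, was not tested, nor were Myo1a, Myo3a and Myo16.

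Of 12 genes of Usher syndrome and of myosin VIIa partners, 8 were tested, and Ush1c, Pcdh15, Clrn1 and Anks4b were not. The summed level of the list was 31.1 to 32.7 CPM in acute RA and 83.2 to 103.1 CPM in acute CS. After acute CS 2 rose and 0 fell. The median log2 fold change was 2.14 over the 8 genes, of which 3 averaged under 1 CPM in acute RA. Pdzd7 was at 0 in both acute RA libraries, and with that gene at its bound against a floor of 3 counts per library the median was 2.04. Myrip was at 0 to 2.45 CPM in acute RA, and its log2 fold change of 4.03 (SE 1.98, adjusted p = 0.368 from edgeR) did not pass. The leukocyte, blood endothelial, mesenchymal and macrophage sums given above were higher in the same acute CS libraries, and their part in this list was not tested. Rab27a, a GTPase of secretory organelles, rose, with means of 9.61 ± 0.784 and 49.7 ± 6.71 CPM (SD, n = 2) and a log2 fold change of 2.37 (SE 0.47, adjusted p = 0.0213 from edgeR). Cib2, a calcium-binding partner of the hair bundle complex, rose, with means of 3.47 ± 1.44 and 13 ± 0.871 CPM (SD, n = 2) and a log2 fold change of 1.91 (SE 0.38, adjusted p = 0.0220 from edgeR). Ush1g, a scaffold of that complex, was at 12.7 ± 4.69 and 4.89 ± 2.22 CPM, a log2 fold change of -1.38 (SE 0.67, adjusted p = 0.365 from edgeR). After chronic CS none passed edgeR or DESeq2, 1 had an unadjusted p under 0.05 in edgeR (10.9% of all genes did), and the median was -0.23.

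The acute counts of these lists depended on the libraries. Without acute CS F, none of the DENN domain, myosin or Usher genes was called, and without acute CS M 1 DENN domain, 2 myosin and 1 Usher gene were. When the chronic libraries were left out of the fit, 0 DENN domain, 1 myosin and 1 Usher gene were called. DESeq2 called 3, 3 and 2, beside 1928 of all genes in the acute comparison, where edgeR called 745.

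**Figure D4:**
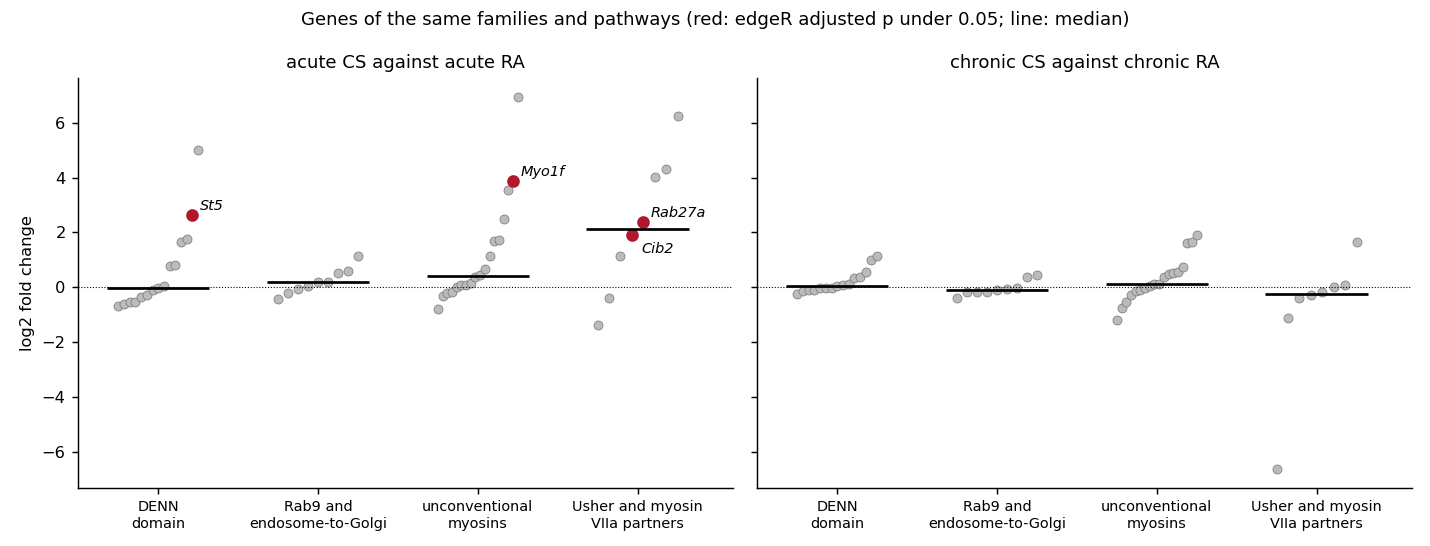
Log2 fold change of CS against RA on the y axis for tested genes of 4 families and pathways on the x axis, without the members, in the acute (left) and chronic (right) comparison. Red points are called by edgeR and black lines are medians. Apart from 4 red points in the acute panel (St5, Myo1f, Rab27a and Cib2), all above 0, the points are grey.

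The genes beside the members on the chromosome were also compared. The exons of Dennd2a share 71 bases (0.982%) with 8030453O22Rik, an antisense transcript counted at no more than 38 reads in a library. The nearest tested genes were Gm10244 and Adck2, with acute log2 fold changes of 1.83 (SE 2.54) and 0.19 (SE 0.26). For Myo7a they were Pak1 and Capn5, with -0.30 (SE 0.34) and -0.31 (SE 0.23). Beside Gm10382 lie Dhx37, with -0.33 (SE 0.31), and Scarb1, the receptor gene for high-density lipoprotein, which rose by a log2 fold change of 1.93 (SE 0.27, adjusted p = 0.00602 from edgeR). Among the neighbours named here, Scarb1 was the 1 called, and it moved in the direction opposite to Gm10382. In the chronic comparison none of these neighbours passed the adjusted limit of edgeR or an unadjusted p of 0.05.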

How the data were processed

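The deposited files hold whole, unnormalized counts for each Ensembl identifier. The authors made them from SMART-Seq v4 libraries by trimming with Skewer, quality control with FastQC 0.11.9 and Minion, and alignment to GRCm38 with STAR, counting in its GeneCounts mode. The annotation release and strand setting are not given in the sources used here. Groups follow the labels, which name no batch. Replicates are the labelled libraries, and p-values measure the spread between them.

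Tests used edgeR 4.0.16 in R 4.3.3 (TMM factors, filter by expression, quasi-likelihood test with Benjamini-Hochberg adjustment over all 21440 genes, 4 groups in 1 fit of 12 libraries), with DESeq2 1.42.0 as an alternative, while pandas 2.3.3 on Python 3.11.15 gave the ratios and exact tests. Each row carried an Ensembl identifier, and 233 of the 52636 identifiers had no gene name in GENCODE M21. FPKM used the union of exons of GENCODE M21. Ratios added 2 counts to both genes, and log2 CPM a prior count of 2. Exact tests were two-sided. The edgeR fit was tested on simulated counts with known fold changes.

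The members, lists, tests and named genes (the members, Prox1, the 2 genes ranked next, the genes most alike, called or most abundant list genes, neighbours, and marker summaries) were chosen with earlier results of these data known. Some genes of the lists, and a gene that overlaps Gm10382, are not reported here, and list counts leave them out. A planned comparison of proteins was not run, and adjustment over the 3 members alone is not printed. Alternatives were another tool, scaling, filter, fit, covariate, replicate block, reference gene, pseudocount and left-out libraries.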

Additional observations from a re-analysis of the deposited data

Results flagged for a closer look

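The acute and chronic effects on Prox1, the gene against which the members were set, differed. Its log2 fold change was -1.03 in the acute and 0.06 in the chronic comparison, and the acute minus the chronic effect was -1.09 (SE 0.19, adjusted p = 0.0406 from edgeR's test of the difference, over all genes). Both acute CS libraries lay below both acute RA libraries, whereas the chronic groups overlapped. Prox1 was flagged among 52 named genes checked for such a difference. Lymphatic, leukocyte and blood endothelial marker sums moved with the acute groups, and their part in this difference was not tested. Age, length of exposure, pooling and total count also differed between the acute and chronic libraries, and their parts cannot be told apart. The same difference was not tested for Dennd2a, Myo7a and Gm10382, which were selected on the acute comparison.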

How the results depend on the processing

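The acute log2 fold changes, whose sign the selection of the members fixed, ranged over left-out libraries from -1.21 to -0.92 for Dennd2a, from -1.32 to -1.02 for Myo7a and from -2.19 to -1.78 for Gm10382. The acute log2 ratio to Prox1 ranged over left-out libraries from -0.0896 to 0.0363 for Dennd2a (0.0363 without acute RA F), from -0.184 to -0.0849 for Myo7a (-0.0849 without acute RA F) and from -1.15 to -0.71 for Gm10382. With Flt4 as the reference it was 0.0502 for Dennd2a and -0.0577 for Myo7a, and with the lymphatic list -0.11 and -0.21.

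The genes called in the acute comparison numbered 745, or 1928 with DESeq2, 139 with only the groups compared, 73 with the replicate block and 3 to 858 over left-out libraries. In the chronic comparison they numbered 0, or 527 with DESeq2, 10 without a filter, 1 with chronic CS F, M1 and M2 only, 16 with M3 and M4 only, and 0 to 4 over left-out libraries.

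The chronic log2 fold change of Gm10382 was -0.73 and past the limit with DESeq2, and under no other alternative run (edgeR's adjusted p 0.127 to 0.640). That of Dennd2a, near 0 throughout, turned to 0.033 with DESeq2, 0.084 with library size, 0.0038 without a filter, 0.0077 with only the groups compared, 0.00015 with sex as a covariate, 0.029 with the replicate block, 0.045 with chronic CS F, M1 and M2 only, and lay from -0.035 to 0.033 over left-out libraries. Its log2 ratio was 0.38 with Flt4, 0.22 with the lymphatic list and 0.032 with chronic CS F, M1 and M2 only, -0.19 with M3 and M4 only, and -0.097 to 0.027 over left-out libraries. That of Myo7a was 0.16 with Flt4, -0.0024 with the lymphatic list, -0.15 with chronic CS F, M1 and M2 only, -0.45 with M3 and M4 only, and -0.35 to -0.20 over left-out libraries. That of Gm10382 was -0.78 with chronic CS F, M1 and M2 only (exact permutation p = 0.1), -0.92 with M3 and M4 only (exact permutation p = 0.2), and -0.94 to -0.75 over left-out libraries (exact permutation p = 0.0571 or 0.0952). Each is the smallest p its design allows, so these say nothing of stability. Over left-out libraries, r with Prox1 ranged from -0.43 to 0.76 for Dennd2a, -0.14 to 0.36 for Myo7a and -0.12 to 0.22 for Gm10382, and with Flt4 r was 0.26, 0.68 and 0.64.

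Labels share sex and number between groups, but deviations of same-numbered libraries had r of 0.069 in the acute and -0.042, 0.034 and 0.0060 in the chronic comparison, so they were not treated as pairs. With the replicate block, the chronic log2 fold change was -0.16 for Myo7a and -0.78 for Gm10382. The cause of the shifts named was not tested. The members were counted at 441 reads or more, and libraries were not thinned to equal depth.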
